A study of Mus musculus with 2 samples.

Results

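The immediate early genes examined here are Nr4a1, Nr4a2, Jun, Junb, Jund, Fos, Fosb, Egr1, Ier2 and Atf3, 10 of the 16910 annotated nuclear genes with a read in either library. They were chosen by gene name in the transcript count tables of both libraries, with transcript models of every class, and their exons were taken from the matching model files. The samples were adrenal glands of female B6CASTF1/J mice aged 2 months, and no treatment is given. Total RNA with added spike-in transcripts was sequenced as long reads, with 1 library per replicate and both replicates in 1 group. According to the labels the biosamples come from animals 3 and 4, yet both libraries are described with animal 3 and 1 donor identifier. P-values rest on the read counts of 2 single libraries, so they cover counting error only and compare libraries, not conditions, and a difference between these samples may be technical.

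Immediate early genes are transcribed within minutes of a stimulus from factors that are already present in the cell, without new protein synthesis, and most of their messengers decay quickly. Jun and Fos family proteins pair through leucine zippers to form the AP-1 factors, and Nr4a receptors bind DNA as orphan nuclear receptors. In the adrenal cortex corticotropin acts through cAMP and protein kinase A, and Nr4a1 is among the genes known to be induced by it.

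Replicate 1 held 1277310 reads and replicate 2 held 520388, of which 1209457 and 502655 were assigned to annotated nuclear genes. Levels are given as CPM, the count scaled to those nuclear reads, with each long read counted once and no division by transcript length. Whether some reads are amplified copies of 1 molecule was not tested, and such copies would make the p-values too small. With a floor of 3 reads per library, the smallest level that can be told from 0 was 2.48 CPM in the deeper library and 5.97 CPM in the other. Marker genes of the cortex summed to 63604 and 83039 CPM in replicates 1 and 2, with 7 of 7 detected. Those of the medulla summed to 11614 and 6712 CPM (7 of 7 detected), and those of fat cells to 7835 and 8015 CPM (6 of 6). Marker sums of macrophages were 753 and 784 CPM and of endothelium 561 and 782 CPM, with 7 of 7 detected in each list. For capsule and fibroblasts they were 530.0 and 380.0 CPM (6 of 6), and for red blood cells 1168 and 754 CPM (5 of 5). Kidney markers summed to 52.1 and 75.6 CPM, with 1 of 5 detected and with Slc12a1 at 0 reads in both libraries. Detection required 3 or more reads in both libraries. In this bulk tissue, fewer cells of a type and less RNA per cell cannot be told apart.

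Together the 10 genes took 1801 reads in replicate 1 and 1252 in replicate 2, or 0.149% (exact Clopper-Pearson 95% interval 0.142 to 0.156) and 0.249% (0.235 to 0.263) of nuclear gene reads. The share was higher in replicate 2, and the intervals cover counting error only. Nr4a1 (156 and 925 CPM) and Jund (560 and 975 CPM) were higher there, but the members did not rise as a group. Of the 8 tested, 5 had a negative log2 ratio and 3 a positive one. All 10 genes had reads in both libraries, and 7 of them were detected. Mean levels ran from 767 ± 293 CPM for Jund to 1.82 ± 0.237 CPM for Atf3 (SD, n = 2). Of the 9 pairs of neighbours in the order of means, 4 had ranges that did not overlap between the libraries, namely Jun above Ier2, Ier2 above Junb, Junb above Nr4a2 and Egr1 above Fos. The other 5 pairs, among them Jund with Nr4a1 and Nr4a1 with Jun, changed places or overlapped between the libraries. These ranges leave out counting error. The Poisson 95% intervals of Ier2 (94.3 to 133 and 82.4 to 142 CPM) and Junb (71.0 to 105 and 72.1 to 129 CPM) overlapped in both libraries. Without the genomic class the mean was 3.77 CPM for Egr1 and 4.92 CPM for Fos, which reverses their order.

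**Figure D1:**
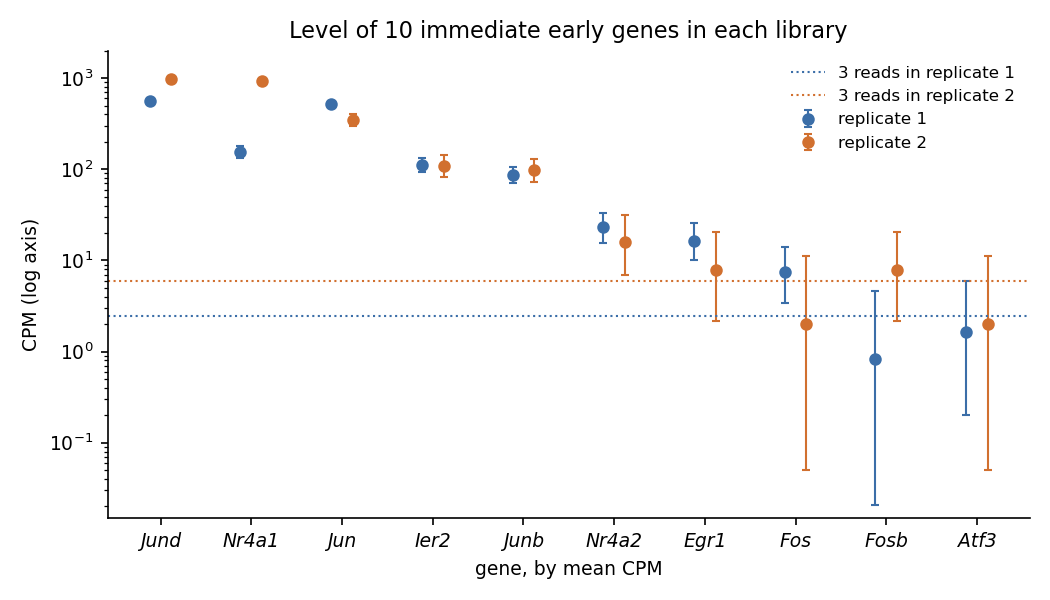
Level of each of the 10 genes in CPM (log axis) in replicate 1 (blue) and replicate 2 (orange), with exact Poisson 95% intervals as bars and the level of 3 reads in each library as dotted lines. Nr4a1 stands at 156 and 925 CPM, while Ier2 and Junb lie close together in both libraries and Fos, Fosb and Atf3 lie near the dotted lines.

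Nr4a1 was the member with the largest difference between the libraries among the 8 tested. It encodes the orphan nuclear receptor Nur77 (ENSMUSG00000023034.7, chr15:101254269-101274795 of mm10, plus strand). The deeper library gave 189 reads and replicate 2 gave 465, although replicate 1 held 2.41 times as many nuclear reads. These counts correspond to 156 CPM (Poisson 95% interval 135 to 180) and 925 CPM (843 to 1013). The level in replicate 2 was 5.92-fold higher, a log2 ratio of 2.56 ± 0.12 (SE of counting), and Fisher's exact test with Benjamini-Hochberg adjustment over all 10170 genes tested gave 2.3e-104. Genes were called at an adjusted p under 0.05 and at least a 2-fold difference, and Nr4a1 was the 1 member called of 8 tested. Of all genes tested 9.55% were called, 5.96% as higher in replicate 2 and 3.59% as lower, so the members' count is near that background. With a mean of 541 ± 544 CPM, Nr4a1 held rank 226 among genes with a read.

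The median log2 ratio of the 8 members tested was -0.26, against -0.06 over all genes tested, and 3 of the 8 were positive. Fosb and Atf3 had under 10 reads over both libraries and were not tested. At an adjusted p under 0.05 with no minimum fold, 3 members passed, where 17.9% of all genes did. The marker sums of cortex and endothelium were higher in replicate 2, those of medulla, capsule and red blood cells were lower, and those of fat cells and macrophages were nearly equal. Their part in the level of Nr4a1 was not tested.

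**Figure D2:**
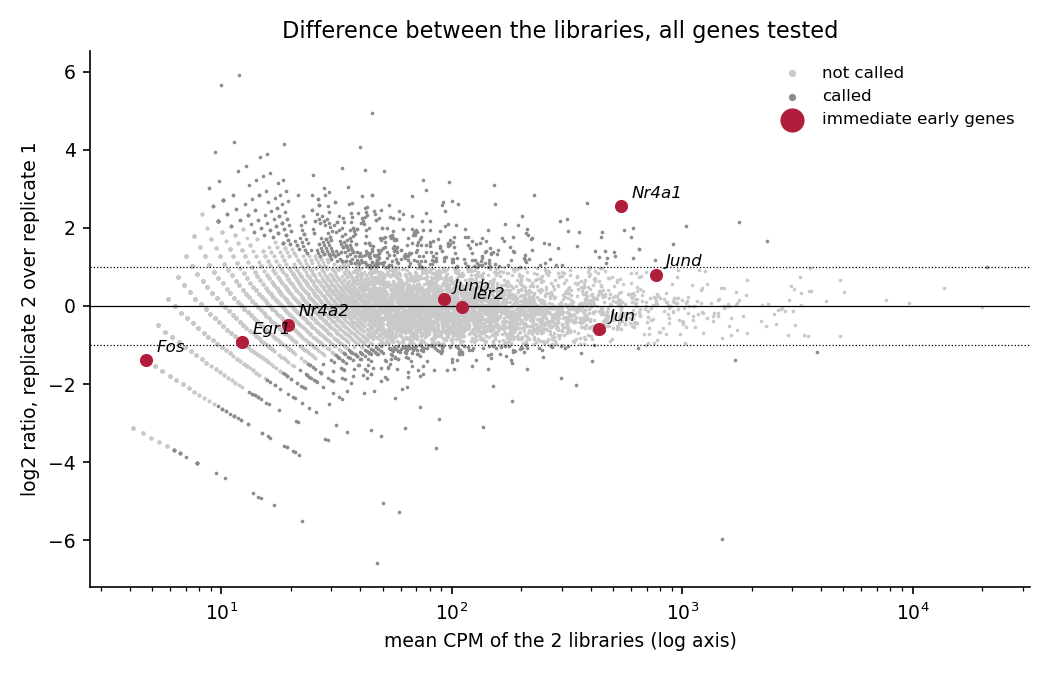
Log2 ratio of replicate 2 over replicate 1 against the mean CPM (log axis) for each gene tested, with called genes in dark grey, others in light grey and the 8 members tested in red; dotted lines mark 2-fold. Nr4a1 lies at 2.56, above the line, and the other 7 members are not called.

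Transcripts of Nr4a1 were also composed differently in the libraries. Nr4a1-201, a 7-exon messenger of 2477 bases, had 111 of 189 reads (58.7%, 95% interval 51.4 to 65.8) in replicate 1 and 436 of 465 (93.8%, 91.2 to 95.8) in replicate 2. The intervals did not overlap, and the difference of 35.0 percentage points had an adjusted p of 1.5e-23 by Fisher's exact test over 2098 genes that had 50 or more reads in both libraries. A share was called at an adjusted p under 0.05 and at least 10 percentage points, which 16.4% of those genes met. All annotated models together held 63.0% (55.7 to 69.9) of Nr4a1 reads in replicate 1 and 94.2% (91.7 to 96.1) in replicate 2, an adjusted p of 3.1e-20. Of all genes tested 17.7% were called for this annotated share, and in 363 of the 371 called the share was higher in replicate 2, as it was for Nr4a1. Jun, Ier2 and Jund were tested as well and not called. Their annotated models have 1 exon and held 98.4% to 100% of their reads in both libraries, so they offer little contrast to Nr4a1.

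Most of the remaining Nr4a1 reads of replicate 1 lacked the 5′ end of the messenger. A 6-exon model that begins at exon 2 of Nr4a1-201 and holds all 5 introns downstream of it, an incomplete splice match, held 49 reads of replicate 1 and 12 of replicate 2. A model without introns that spans the last 2 introns of the gene (94 and 802 bases) had 12 reads in replicate 1 and none in replicate 2. It belongs to the genomic class, which fits neither the annotation nor a new chain of introns. Reads that span those introns were thus 12 of 185 (6.49%, 3.40 to 11.1) in replicate 1 and 0 of 462 in replicate 2, where an upper bound of 0.795% remains. With annotated models alone, the log2 ratio of Nr4a1 was 3.05.

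First exons of Nr4a1 fell mainly on the start that lies nearest to exon 2. Reads with the first exon of Nr4a1-201 (start at chr15 position 101266846) were 112 (59.3%, 51.9 to 66.3) in replicate 1 and 438 (94.2%, 91.7 to 96.1) in replicate 2. The distal first exon of Nr4a1-202, at position 101254269, had 10 and 3 reads. An unannotated first exon at chr15:101260674-101260839 was joined to exon 2 of Nr4a1-201 in 4 reads of replicate 2. In replicate 1 no read began there, but 1 read that began at the distal exon used the same donor after an internal exon. Annotated models carry the ends of the annotation, so the ends of single reads are not shown by these files.

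**Figure D3:**
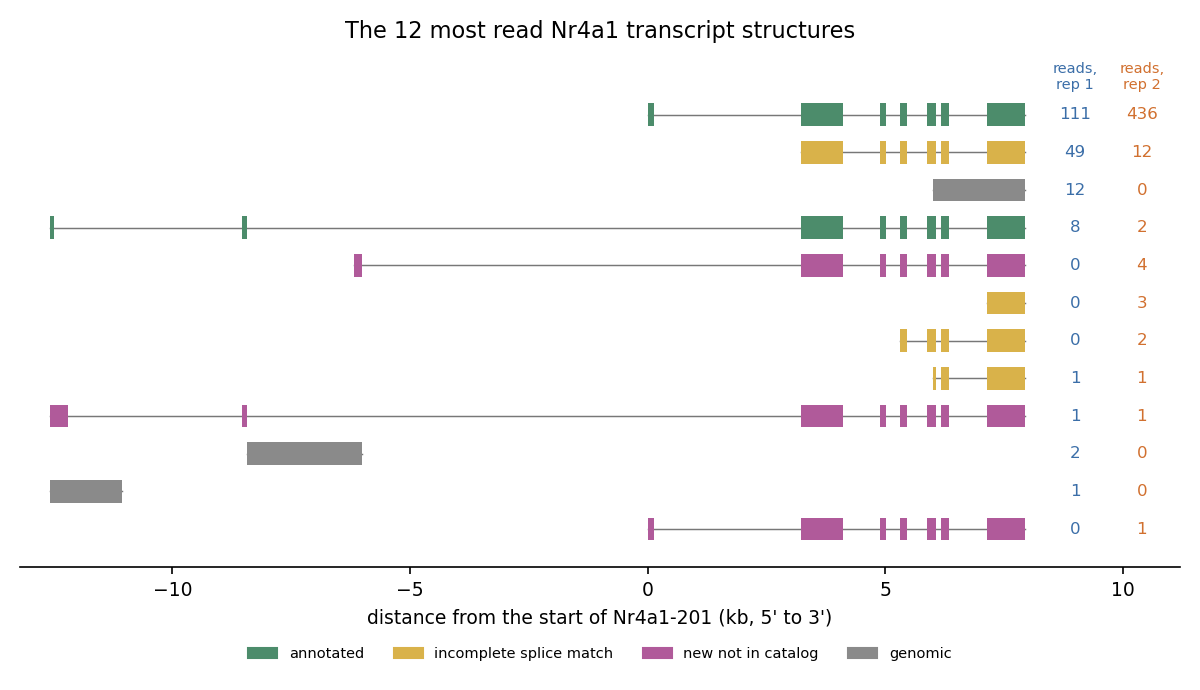
Exons (boxes) of the 12 most read Nr4a1 structures against distance from the start of Nr4a1-201 in kb, coloured by class, with reads of replicate 1 in blue and of replicate 2 in orange at the right. The full 7-exon messenger has 111 and 436 reads, and the form without its first exon has 49 and 12.

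The 250 bases before the start of Nr4a1-201 are shown because most full-length reads were assigned to that start. This is also the RefSeq start (RefSeq sequence, GRCm38.p6, chr15:101266596-101266845, plus strand). Capitals mark the short cAMP response element motif, TGACG on either strand, which reads CGTCA on the opposite one.
Nr4a1: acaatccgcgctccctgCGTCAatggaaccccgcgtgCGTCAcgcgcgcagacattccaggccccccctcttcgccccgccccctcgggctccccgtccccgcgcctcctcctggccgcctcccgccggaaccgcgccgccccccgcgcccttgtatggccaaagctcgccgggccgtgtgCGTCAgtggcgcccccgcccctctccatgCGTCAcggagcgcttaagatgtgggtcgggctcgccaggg
The window holds 4 copies. Of 32851 RefSeq promoter windows of the same length 17.8% held at least 1 copy and 0.137% held 4 or more, and of the 9178 windows with at least 60% GC these were 27.1% and 0.370%.

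Nr4a2 encodes the related orphan receptor Nurr1 (ENSMUSG00000026826.13, chr2:57106830-57124003, minus strand). It had 28 reads in replicate 1 (23.2 CPM, 15.4 to 33.5) and 8 in replicate 2 (15.9 CPM, 6.87 to 31.4). The intervals overlapped widely, and the log2 ratio of -0.48 ± 0.56 had an adjusted p of 0.719. Nr4a3, the remaining family member, named here after its values were seen, had 9 and 3 reads (7.44 and 5.97 CPM).

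Nr4a2 reads were spread over several structures. Nr4a2-201 had 7 reads in replicate 1 and 2 in replicate 2, and Nr4a2-203 had 3 and 0. The proximal first exon, which starts at position 57115038, was used in 9 of 28 reads of replicate 1 and 6 of 8 of replicate 2. The distal one at 57124003 was used in 4 and 1. A further 10 reads of replicate 1 and none of replicate 2 began at an exon farther downstream, of which 7 belonged to a 6-exon incomplete splice match. A form of that match with another acceptor, described next, held 3 reads of replicate 1, and the chain of Nr4a2-201 with the same acceptor held 2 reads of replicate 2.

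In some reads the intron from 57108740 to 57109062 was extended to 57108619, so that 121 bases of the next exon were skipped. The downstream acceptor was used in 5 of 26 reads of replicate 1 (19.2%, 6.55 to 39.4) and 3 of 8 of replicate 2 (37.5%, 8.52 to 75.5). It was thus read in both libraries, and the intervals overlap. M21 lists the acceptor in Nr4a2-206, an annotated target of nonsense-mediated decay. The first line below, from the M21 transcripts, is the exon of Nr4a2-201 with the skipped segment in capitals (chr2:57108589-57108739, with 15 bases of the preceding exon), and the second is the joined messenger with the first stop codon in capitals.
Nr4a2 skipped segment: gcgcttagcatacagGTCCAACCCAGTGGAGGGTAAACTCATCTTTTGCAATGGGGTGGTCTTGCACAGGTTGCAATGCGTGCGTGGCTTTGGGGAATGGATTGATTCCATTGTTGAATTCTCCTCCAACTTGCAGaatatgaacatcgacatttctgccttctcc
Nr4a2 joined: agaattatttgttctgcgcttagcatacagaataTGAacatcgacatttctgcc
In the joined messenger TGA follows 4 bases after the junction, in frame. Applied to the frame of Nr4a2-201, the skip leaves 455 codons before the stop, against 598 in full length.

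RefSeq starts Nr4a2 at the distal exon, and the 250 bases before it (chr2:57124004-57124253, minus strand) also hold 4 copies of TGACG, which is why they are shown beside Nr4a1.
Nr4a2: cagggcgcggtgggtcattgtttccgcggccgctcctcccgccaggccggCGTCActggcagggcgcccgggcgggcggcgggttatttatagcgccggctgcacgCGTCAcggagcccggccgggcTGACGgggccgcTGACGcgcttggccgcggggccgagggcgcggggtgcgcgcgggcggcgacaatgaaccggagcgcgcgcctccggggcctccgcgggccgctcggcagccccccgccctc
None of the 4 copies forms part of the full palindrome TGACGTCA, which 1.55% of windows hold. The distal first exon was used in 4 of 28 reads of replicate 1 and 1 of 8 of replicate 2. This window therefore does not adjoin the start of most Nr4a2 reads.

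Among the Jun genes, Jund and Jun were abundant in both libraries, with Jund higher in replicate 2 and Jun higher in replicate 1. Jund encodes the JunD subunit, which is present in many resting cells (ENSMUSG00000071076.6, chr8:70698949-70700616, plus strand). It had 677 reads in replicate 1 (559.8 CPM, 518 to 604) and 490 in replicate 2 (975 CPM, 890.4 to 1065). The intervals did not overlap and the level was 1.74-fold higher in replicate 2, a log2 ratio of 0.80 ± 0.09 with an adjusted p of 5.6e-18 by Fisher's exact test, short of the 2-fold a call requires.

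Jun, the founding subunit of AP-1 (ENSMUSG00000052684.4, chr4:95049034-95052222, minus strand), had 634 reads in replicate 1 (524 CPM, 484 to 567) and 175 in replicate 2 (348 CPM, 298 to 404). Its level was 1.51-fold higher in replicate 1, with a log2 ratio of -0.59 ± 0.12 and an adjusted p of 1.9e-05, and it was not called either. Junb, a further AP-1 subunit (ENSMUSG00000052837.6, chr8:84974484-84978718, minus strand), had 105 and 49 reads, or 86.8 CPM (71.0 to 105) and 97.5 CPM (72.1 to 129). Its log2 ratio of 0.17 ± 0.25 was smaller than its counting error, with an adjusted p of 0.771.

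Most members' reads lay in annotated models, 93.5% in replicate 1 and 97.0% in replicate 2, where all nuclear genes had 76.5% and 81.8%. All reads of Ier2 and Junb were annotated in both libraries, as were all but 1 of Jund. The annotated models read of Ier2, Jun, Junb and Jund have 1 exon, and for such genes a read is annotated without any splicing having been seen.

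**Figure D4:**
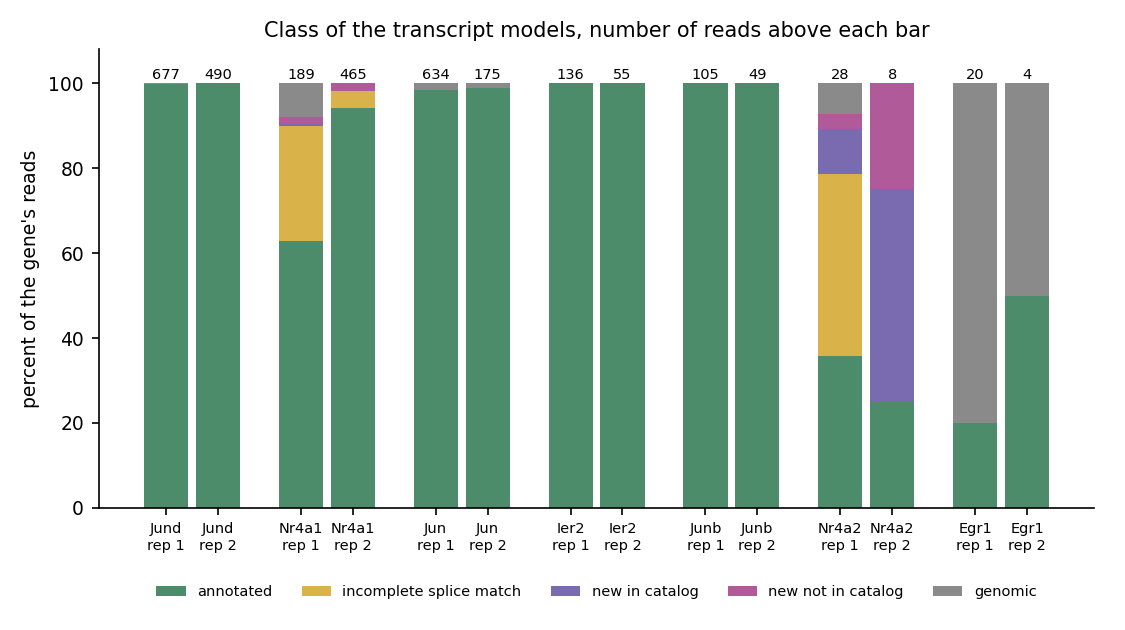
Percent of each gene's reads in each transcript class, in replicate 1 and replicate 2, for the 7 members with at least 20 reads over both libraries; the number of reads stands above each bar. Jund, Jun, Ier2 and Junb are almost wholly annotated, Nr4a1 stands at 63.0% and 94.2%, and Nr4a2 and Egr1 rest on few reads.

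In Jun, a gene annotated without introns, a few reads lacked an internal stretch of the exon, all of them in models of the genomic class. A gap of 112 bases in the 5′ UTR (chr4:95051377-95051488) was present in 7 of 634 reads of replicate 1 (1.10%) and 1 of 175 of replicate 2 (0.571%). The gap was thus shared by both libraries, and it begins with GT and ends with AG as introns do. The 20 bases around each edge are shown from the M21 transcript on the minus strand (chr4:95051477-95051496 and chr4:95051369-95051388), with these letters in capitals and 8 bases outside the gap.
Jun 5′ edge: ctaccaacGTgagtgctagc
Jun 3′ edge: actttgttacAGaagcgggg
A gap of 80 bases in the 3′ UTR (chr4:95049815-95049894) had 1 read in each library, and a gap of 248 bases had 1 read in replicate 1. Both also begin with GT and end with AG. No direct repeat of more than 1 base flanked any of the 3 gaps.

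Fos and Fosb were scarce. Fos, the partner of Jun in AP-1 (ENSMUSG00000021250.13, chr12:85473890-85477273, plus strand), had 9 reads in replicate 1 (7.44 CPM, 3.40 to 14.1) and 1 in replicate 2 (1.99 CPM, 0.0504 to 11.1). The read in replicate 2 lay under the floor of 3 reads, the intervals overlapped, and the adjusted p was 0.561. Fos-201, the complete 4-exon messenger, had 7 of the 9 reads and the single read of replicate 2. The 250 bases before its start (chr12:85473640-85473889, RefSeq) hold 2 copies of TGACG and a TATAAA box.
Fos: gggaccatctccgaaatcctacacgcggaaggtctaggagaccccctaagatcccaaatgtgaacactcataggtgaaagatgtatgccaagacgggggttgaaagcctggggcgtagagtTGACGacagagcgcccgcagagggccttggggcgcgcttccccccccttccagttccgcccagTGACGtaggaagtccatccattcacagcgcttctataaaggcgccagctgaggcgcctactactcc
On either strand, TATAAA was found in 2 of the 8 members with a RefSeq window, Nr4a2 and Fos, against 12.4% of all windows.

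Fosb, a relative of Fos (ENSMUSG00000003545.3, chr7:19302696-19310051, minus strand), had 1 read in replicate 1 and 4 in replicate 2 (0.827 and 7.96 CPM). All 4 reads of replicate 2 were Fosb-206 (4 of 4, interval 39.8 to 100), the splice form that gives the truncated protein known as delta FosB, and Fosb-201, the full-length form, had none in either library. The read of replicate 1 was a single exon in the 3′ part of the gene that does not cover this splice. The form removes 140 bases of an exon of Fosb-201 (chr7:19305007-19305146), which begin with GT and end with AG. From the M21 transcripts, the first line shows this segment in capitals with 30 bases on either side, and the second the joined messenger with its stop codon in capitals.
Fosb excised segment: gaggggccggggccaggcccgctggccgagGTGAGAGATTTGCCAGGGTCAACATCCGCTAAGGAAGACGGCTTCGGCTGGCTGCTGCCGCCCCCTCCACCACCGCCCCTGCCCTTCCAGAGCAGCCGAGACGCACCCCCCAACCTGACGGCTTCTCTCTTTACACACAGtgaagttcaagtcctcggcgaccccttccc
Fosb joined: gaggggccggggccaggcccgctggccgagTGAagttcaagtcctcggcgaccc
The stop TGA lies directly at the junction and closes the frame after 237 codons, where Fosb-201 has 338. With 4 reads, the share of this form among Fosb transcripts is poorly bounded. Fosl2, another Fos family gene, named here after its values were seen, was more abundant, with 136 reads (112 CPM) in replicate 1 and 36 (71.6 CPM) in replicate 2.

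Short A and U rich elements in the 3′ UTR, which bind decay factors, are a known feature of these messengers. The longest annotated 3′ UTR of each gene was searched, which need not be that of the form read. ATTTA was found in 9 of the 10 members' 3′ UTRs, with none in Ier2, and the members' median was 2.40 per kb. The match in Fosb (chr7:19303338-19303367) lies in Fosb-207, which had no reads, and beyond the end of Fosb-206 at 19304797. It is spanned by the single-exon read of replicate 1. Over 9734 genes tested with an annotated 3′ UTR 68.8% held it and the median was 1.27 per kb, and among 5108 with a 3′ UTR as long as the members' 74.6% held it. Fos also held the longer TTATTTATT, as did 7.37% of the genes tested. Windows of 30 bases with ATTTA in capitals are shown for Fos (chr12:85477090-85477119), Jun (chr4:95049210-95049239) and Nr4a1 (chr15:101274701-101274730), from the M21 transcripts.
Fos: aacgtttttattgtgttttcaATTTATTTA
Jun: gtgatcATTTAtaatcataggaaagATTTA
Nr4a1: gATTTAtatttgtgtattttcctggATTTA
A match is a description of the letters, and whether these transcripts decay faster was not measured.

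Over the 8 members with a RefSeq window, TGACG occurred in 6, with Jun and Jund at 0, where 17.8% of all windows held it. Of the 6 members' windows with at least 60% GC, 5 held it, against 27.1% of all such windows. Egr1 and Ier2 have no window in the table used. The AP-1 element TGANTCA, the CArG box and the Nr4a element AAAGGTCA were found in none of the 8, against 6.75%, 1.47% and 1.34% of all windows. Only these patterns were searched, and only within the windows. Sites with other letters or farther from the start would be missed, so the promoters may still hold such elements. The RefSeq start of Jund lies 1210 bases from the M21 start, so its window does not adjoin the model that was read.

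Egr1, a zinc finger factor (ENSMUSG00000038418.7, chr18:34859823-34864984, plus strand), had 20 reads in replicate 1 (16.5 CPM, 10.1 to 25.5) and 4 in replicate 2 (7.96 CPM, 2.17 to 20.4), which overlapped, with an adjusted p of 0.520. Of these, 16 and 2 were unspliced models within exon 2 of Egr1-201, and the spliced Egr1-201 had 4 and 2. Without the genomic class the mean level of Egr1 was 3.77 CPM, against 12.2 ± 6.07 CPM (SD, n = 2) with it. Ier2, a short nuclear protein gene without introns (ENSMUSG00000053560.4, chr8:84661331-84662852, minus strand), was the most even member, at 112 CPM (136 reads) and 109 CPM (55 reads), a log2 ratio of -0.03 ± 0.23. Atf3, a stress-inducible bZIP factor (ENSMUSG00000026628.13, chr1:191170296-191218039, minus strand), had 2 and 1 reads, all of Atf3-201, and lay under the floor in both libraries.

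Other genes of the immediate early response were tested as a list of 38 genes, of which 27 had enough reads. Of these, 3 were called higher in replicate 2 and 3 lower, against 5.96% called higher and 3.59% called lower of all genes tested, and the list's median log2 ratio was -0.11. Errfi1, an inhibitor of the epidermal growth factor receptor, stood at 48.0 and 117 CPM (log2 1.29 ± 0.27, adjusted p 3.9e-05). Plk3, a polo-like kinase, stood at 25.6 and 69.6 CPM (1.44 ± 0.35), and Dusp5, a phosphatase of the kinase ERK, at 4.13 and 23.9 CPM (2.45 ± 0.74). Lower in replicate 2 were Ier5 at 64.5 and 21.9 CPM, Socs3, a cytokine signalling suppressor, at 51.3 and 19.9, and Klf6, a zinc finger factor, at 50.4 and 15.9. These 6 genes thus lay on both sides of 0. The most abundant of the list were Mcl1, Rhob, Gadd45g and Nfkbia, at 224 ± 43.6, 149.7 ± 24.6, 141 ± 7.82 and 122 ± 0.717 CPM, and none of these 4 was called. Arc, Egr4 and Npas4 had no reads in either library.

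Kinases and activators that act on immediate early promoters were tested as a list of 31 genes, of which 26 had enough reads. In it 5 were called higher in replicate 2 and none lower, where 5.96% and 3.59% of all genes tested were, with a median log2 ratio of 0.37. Prkaca, the catalytic subunit of protein kinase A, stood at 281 and 662 CPM (1.24 ± 0.11, adjusted p 1.3e-25). Mef2d, at 32.2 and 95.5 CPM, Crtc2, a CREB coactivator, at 9.92 and 47.7 CPM, Elk1 at 3.31 and 25.9 CPM and Mrtfa at 2.48 and 17.9 CPM were the others. The most abundant after Prkaca were Map2k2, Crem and Mapk3, at 196 ± 71.5, 146 ± 9.69 and 145 ± 41.9 CPM. Elk1 and Mrtfa rest on 4 and 3 reads in replicate 1.

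Partners of the members in DNA binding and regulators of messenger decay had 1 call each, where 9.55% of all genes tested were called. Of 15 tested of 18, Atf5, a stress-response bZIP factor, was called lower in replicate 2 (76.9 and 31.8 CPM, -1.24 ± 0.39, adjusted p 0.0046), and the median was -0.25. Cebpb led at 2717 ± 55.7 CPM, and Nr5a1, Atf4 and Rxrb stood at 1162 ± 76.1, 184 ± 23.3 and 119 ± 5.52 CPM. Of 15 regulators of messenger decay tested of 17, Khsrp was called higher (25.6 and 53.7 CPM, 1.07 ± 0.38, adjusted p 0.0356) and the median was 0.14. Elavl1, Hnrnpd, Cnot8 and Cnot7 led that list at 166 ± 18.4, 118 ± 29.3, 87.4 ± 2.65 and 68.5 ± 4.46 CPM.

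Heat shock genes were called higher in replicate 2 in 4 of 14 tested and lower in none, where 5.96% and 3.59% of all genes tested were. Their median log2 ratio was 0.75. Hspa1b stood at 454.8 and 1365 CPM (1.59 ± 0.08), Hspa1a at 150.5 and 559 CPM (1.89 ± 0.14), Bag3, their cochaperone, at 132 and 396 CPM (1.58 ± 0.15) and Hsf1, the heat shock factor, at 18.2 and 99.5 CPM (2.43 ± 0.37). Hspa1a and Hspa1b are near-identical copies, and their reads may be exchanged. The abundant Hspa8, Hsp90ab1 and Hspd1 had log2 ratios of 0.37, 0.32 and -0.49 and were not called. Their part in the level of Nr4a1 was not tested.

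**Figure D5:**
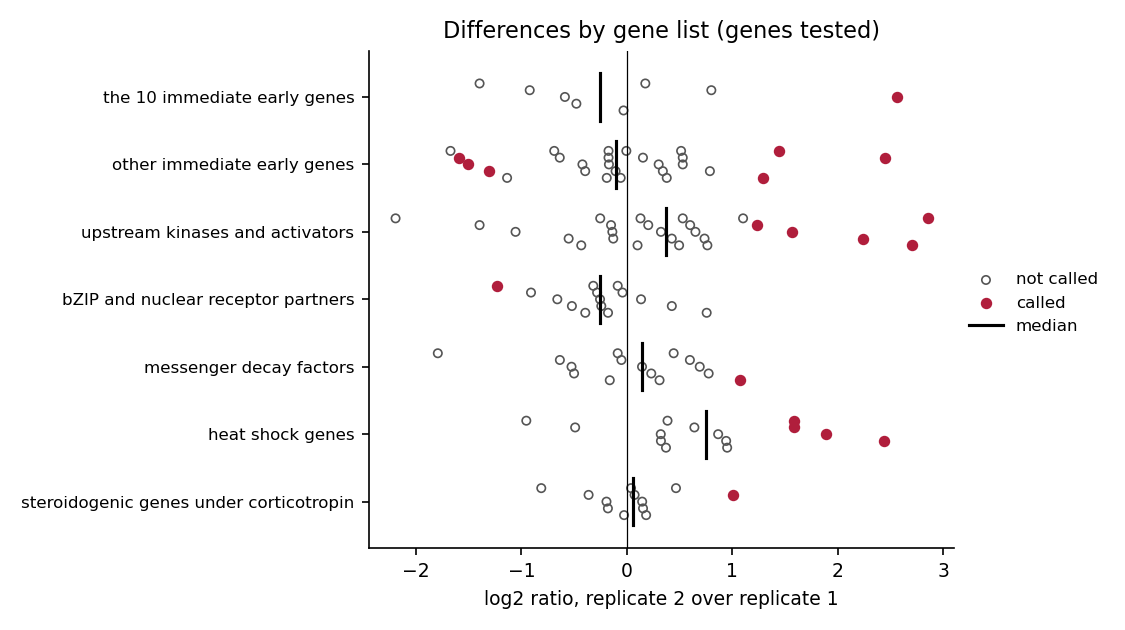
Log2 ratio of replicate 2 over replicate 1 for each tested gene (circle, filled where called) of the 10 immediate early genes and of 6 further lists, with the median of each list as a bar. Heat shock genes have the highest median, at 0.75, and the called members of the other immediate early genes lie on both sides of 0.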

How the data were processed

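Long reads of adrenal RNA of 2 libraries were analysed. The authors deposited, per library, whole-number read counts per transcript model, not normalised, with the models, on mm10 and GENCODE M21 per the file headers. The labels' protocols cite version 3.0 of the ENCODE analysis document for long reads. Not given in the sources used here are the platform, the aligner and the version of TALON. Of the members' annotated models 23 of 23 had the same exons as M21.

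Counts were summed per annotated nuclear gene over all classes and scaled over nuclear reads, which were 94.7% and 96.6% of all reads, leaving out spike-ins, the mitochondrial chromosome and new genes. The libraries were compared gene by gene with Fisher's exact test, two-sided (scipy 1.17.1), on genes with at least 10 reads, with 0.5 added reads in log2 ratios, and every adjusted p is from that test with Benjamini-Hochberg adjustment over all genes tested. Models were matched between libraries by intron chain. Alternatives used TMM (edgeR 4.0.16), median of ratios (DESeq2 1.42.0), other minimums, classes and thinning. Named were all members, annotated models with at least 3 reads, the 3 most abundant other models per member, and of each list the 4 most abundant and every called gene. Members and lists were chosen with earlier results of these data known. RefSeq sequences are of GRCm38.p6. No sequence is shown for members without a window. Intervals cover counting error only. Of 10 marker lists, 2 are not reported here.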

Additional observations from a re-analysis of the deposited data

How the results depend on the processing

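Nr4a1 was called in all 8 alternatives, at log2 ratios of 2.56 to 3.05. No member changed direction or its side of the threshold in the alternatives where it was tested. The median log2 ratio of the members turned from -0.26 to 0.07 with no read minimum and 0.17 with at least 50 reads, as other members were tested. Genes called for the annotated share were 371 of 2098 tested, and 575 of 4554 with at least 20 reads. They were 194 of 922 with at least 100 reads and 227 of 1754 with replicate 1 thinned. For the main transcript share they were 345, and 549, 191 and 214, of the same numbers tested. For both shares the called fraction was higher with at least 100 reads, and lower with at least 20 and with thinning. In each of these Nr4a1 was the 1 member called, of 4, 5, 3 and 4 members tested. The members' summed level was 2491 CPM without replicate 1 and 1489 without replicate 2, and the share of Nr4a1 reads spanning its last introns was 0 and 6.49%. The mean level of Nr4a2 was 7.83 CPM with annotated models alone, against 19.5. Of 213 values of single genes and lists 202 stayed within their limits, but this count includes the mean levels of members without 1 replicate. With n = 2 such a level always lies within the SD of the mean, as it did for Nr4a1 at 925 and 156 CPM. Those levels therefore say nothing about stability. The median log2 ratio of the heat shock genes was 0.92 with annotated models alone, against 0.75. No other count of calls moved by over 1.5 times. No paired analysis was possible because there is 1 group. Depth limits Nr4a2, Egr1, Fos, Fosb and Atf3, each with under 40 reads over both libraries.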

Other observations

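Of 12 genes listed for steroid synthesis and its control, all were detected and 1 was called, near the 9.55% called of all genes tested. This was Cyp21a1, with 14022 CPM in replicate 1 and 28073 CPM in replicate 2. Its log2 ratio of 1.0015 only just met the 2-fold a call requires. The list's median log2 ratio was 0.06. Cyp11a1, Cyp11b1 and Star, the next in level, had log2 ratios of -0.03, 0.47 and 0.07. Reads of Cyp21a1 may be mixed with those of its near-identical pseudogene.

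Reads on the strand opposite to a member were few. At Jund there were 4 in replicate 1 and 2 in replicate 2, from Gm11175 and an unannotated gene, and at the other loci at most 1 in a library. Outside the annotated models the members had 30 spliced chains, of which 6 were read in both libraries. These counts include incomplete splice matches, whose introns are annotated, and the genomic class. The shared chains of the new classes, in Nr4a1 and Nr4a2, each had 1 read per library. Single reads were also seen of a 246-base gap in the coding part of Jund and of a distant exon joined to Jun, both in replicate 1 and of the genomic class.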
